A study of Mus musculus with 3 samples.

Results

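The effect of C2 ceramide on mouse embryoid bodies (EBs) was read from 2 RNA sequencing libraries of the same day, 1 from EBs given 30 μM C2 ceramide from day 3 to day 4 and 1 from EBs given DMSO, the vehicle, over the same time. C2 ceramide is a short-chain ceramide that enters cells. EBs are aggregates of embryonic stem (ES) cells that form early cell lineages in culture. Both were made from wild-type E14K mouse ES cells, a single line, in hanging drops without LIF, and were moved to suspension culture after 2 days. A control library of day 3, the day on which treatment began, is given beside them for some genes. The members of this comparison were the genes with 10 or more estimated counts in 1 or both day 4 libraries, 17142 of the 55487 genes in the table. Of the 38345 genes left out, 6767 had some count on day 4. Each condition had 1 library, so the values below are effect sizes without a test, and no difference could be set against the variation between cultures.

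When mouse ES cells aggregate without LIF, they first leave the naive state, the ground state of pluripotency kept by LIF and a set of transcription factors, and pass through a formative state like that of the epiblast. Part of the cells then pass through a stage like the primitive streak, where Wnt, Nodal, BMP and FGF signals induce T-box and homeobox factors and cells turn into mesoderm and endoderm. Cells that do not receive these signals tend towards neuroectoderm. Ceramide is the central lipid of sphingolipid metabolism and acts on kinases and phosphatases. The integrated stress response is a pathway in which phosphorylation of the initiation factor eIF2α lowers general translation and raises that of the transcription factor ATF4, which then induces genes of amino acid supply and transport.

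The 3 libraries had 3.36e+07 to 3.53e+07 counts, and mitochondrial transcripts took 0.651% to 0.768% of them. Common reference genes were at close levels in the day 4 libraries: Actb, which encodes β-actin, was at 3028 and 3062 TPM with DMSO and C2 ceramide, and Gapdh was at 1542 and 1516 TPM. Eef1a1, a translation elongation factor gene, was at 3775 and 3843 TPM. Of 14 such genes none differed by 2-fold, but Pgk1, a glycolytic enzyme gene, was at 499 and 277 TPM. Markers of the ES cell and epiblast state were high in both libraries, with Pou5f1 at 628 and 911 TPM. Cdh1 was at 149.6 and 165 TPM. Afp, Ttr and Apoa1, markers of mature visceral endoderm, were all under 1 TPM, and the trophoblast gene Prl3d1 was at 0 counts in both. The other chosen markers of these cell types, Amn, Elf5 and Tpbpa, are not given. Apoe, on the list of visceral and primitive endoderm used below, was at 1471 and 2875 TPM. These few genes do not show that such cells were absent.

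Genes whose TPM (a share of transcripts corrected for length) with C2 ceramide was above 2 times that with DMSO are called higher, and those below 0.5 times lower. By this rule 1660 genes were higher (9.68% of the 17142), 2030 were lower (11.8%), 3690 were either (21.5%), and 13452 lay within 2-fold. The median log2 ratio over all genes was −0.03 and the middle 50% of genes lay between −0.40 and 0.31. Differences reached further down than up: 959 genes were over 4-fold lower and 678 over 4-fold higher, and 439 and 294 passed 16-fold. The called genes were mostly of low level. Among genes with under 1 TPM in the higher library, 25.0% were higher and 29.5% lower. From 1 to 10 TPM these shares were 11.4% and 14.3%, from 10 to 100 TPM 2.74% and 3.67%, and at 100 TPM or more 1.64% and 1.85%. The genes called higher held 0.618% of all TPM with DMSO and 1.66% with C2 ceramide, and the genes called lower 2.86% and 0.905%. The 2 bounds beside some log2 ratios are a 95% interval from the counts, moved to lie around the TPM ratio. They cover counting error only, and PCR copies of a molecule were counted separately. The interval held no difference for 106 of the genes called higher and 163 of those called lower. Genes at 0 counts in 1 library, 241 of those called higher and 323 of those called lower, have no interval and are not among these. At the threshold, Zup1 lay just inside at 7.50 and 15.0 TPM and Ntf5 just outside at 1.002 and 2.004 TPM. In the text, 2 levels of a gene are those with DMSO and with C2 ceramide on day 4, in this order.

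**Figure D1:**
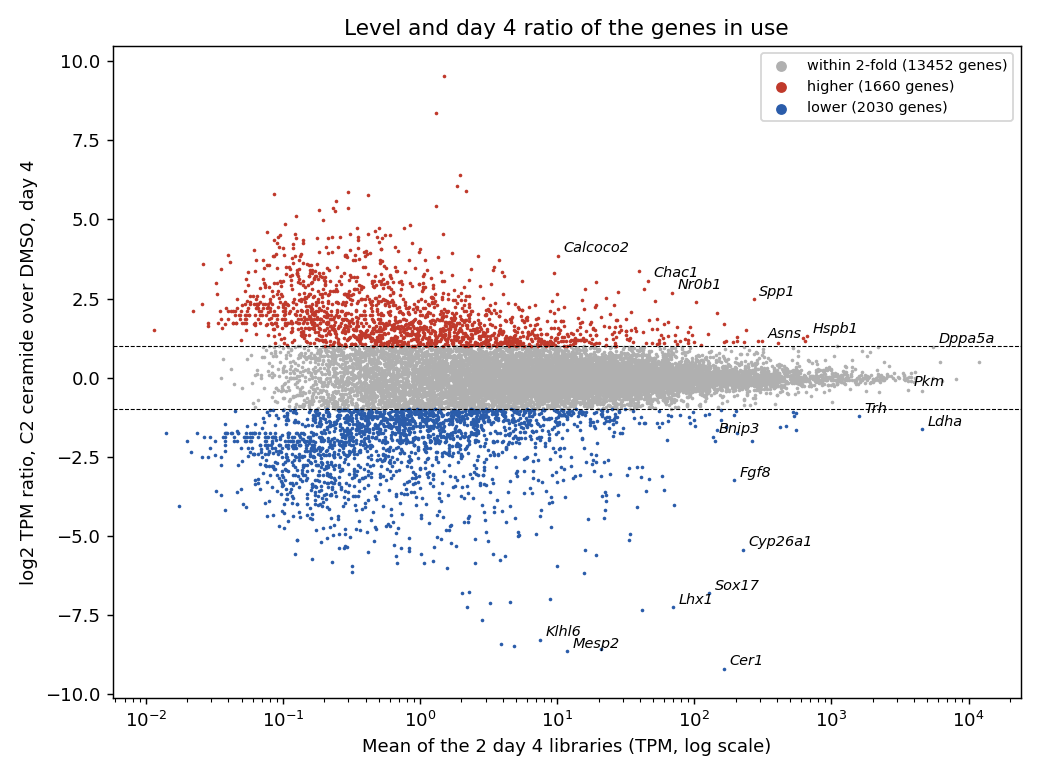
Each point is 1 of the 17142 genes, by its mean TPM over the 2 day 4 libraries (horizontal, log scale) and its log2 TPM ratio of C2 ceramide over DMSO (vertical), with 2-fold as dashed lines. Genes at 0 counts in 1 library are drawn at their bound against 3 counts. The cloud narrows with level, and Ldha, Trh and Cyp26a1 stand below it at high levels.

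Among protein-coding genes with 10 TPM or more in the higher library, the largest ratio was that of Calcoco2, which encodes an autophagy receptor, at 1.32 and 19 TPM, or 3.85 (3.43 to 4.30 by counting error) on the log2 scale. Next came Vax2, which patterns the ventral eye, at 1.75 and 17.2 TPM. Chac1, which encodes an enzyme that degrades glutathione, was at 9.79 and 81.6 TPM, or 3.06 (2.91 to 3.21 by counting error) on the log2 scale. The next were Zfp618, Gap43, Crabp2, Nupr1, Nr0b1, Gbx2, Ly6a, Spp1 and Jdp2, with log2 ratios between 2.46 and 3.03. For Zfp618 the counts went the other way, at 390 and 262 counts, and 91.6% of its TPM with C2 ceramide belonged to a single non-coding transcript. Ly6a, which encodes the surface protein Sca-1, was at 6.75 and 38.5 TPM. Jdp2, which encodes a bZIP repressor that pairs with Jun proteins and ATF factors, was at 4.70 and 25.9 TPM. Nr0b1, Gbx2 and Spp1 are also on the list of naive pluripotency, and Chac1 and Nupr1 on that of the ATF4 response.

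In the other direction the ratios were larger. Cer1, whose product Cerberus binds Nodal and BMP ligands outside the cell, lies at chr4:82881751-82885148 of GRCm38 and was at 331 and 0.564 TPM, from 14465 and 25 counts. Mesp2, a mesoderm transcription factor gene, had 1195 and 0 counts, at least 401-fold lower when 3 counts stand in for 0. Klhl6, which encodes an adaptor of a ubiquitin ligase, had 934 and 0 counts, at least 313-fold lower, and 0 TPM on day 3. Samd3 was at 17.5 and 0.136 TPM, or −7.0 (−8.46 to −5.87 by counting error) on the log2 scale. The remaining genes were Exosc6, Mesp1, Lhx1, Sox17, Fgf3, Gata6, Dkk1 and Cyp26a1. Exosc6, which encodes a subunit of the RNA exosome, had 1136 and 0 counts, but it overlaps Aars on the same strand, and reads of the overlap can be assigned to either gene. The kit does not keep strand, so Sox17, Gata6, Evx1, Vax2 and Gbx2, each of which overlaps a non-coding gene on the opposite strand, cannot be told apart from that gene where they overlap.

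By the amount of transcript, other genes led. The greatest loss was that of Ldha, which encodes lactate dehydrogenase A and lies at chr7:46841475-46855627. It was at 5271, 6963 and 2245 TPM with DMSO on days 3 and 4 and with C2 ceramide, a day 4 log2 ratio of −1.63 (−1.64 to −1.62 by counting error). Trh, which encodes thyrotropin-releasing hormone, was at 2221 and 952 TPM on day 4. Upp1, which encodes a uridine phosphorylase, was at 836 and 264 TPM. S100a10, which encodes a calcium-binding protein of the membrane, was at 742 and 322 TPM. Pkm, Aldoa, Tpi1, Eno1 and its near-identical copy Eno1b, all of glycolysis, were also among the 12 greatest losses, though each lay within 2-fold. Reads of Eno1 and Eno1b can be assigned to either copy, so these are not 2 separate losses. The greatest gain was that of Dppa5a, an RNA-binding protein gene of ES cells, at 3735 and 7352 TPM, or 0.98 on the log2 scale and so just within 2-fold. Apoe, the apolipoprotein E gene, was at 1471 and 2875 TPM. Mt1 and Mt2, which encode metal-binding metallothioneins, were at 1371 and 2424 TPM and at 737 and 1472 TPM. Gpx4, which encodes an enzyme that reduces lipid peroxides, was at 1207 and 2144 TPM. Past 2-fold were 3 of the 12 greatest gains. Hspb1, a small heat shock protein gene, was at 385 and 951 TPM. Utf1, a chromatin factor gene of pluripotent cells, was at 362 and 872 TPM. Chchd10, a mitochondrial protein gene, was at 396 and 888 TPM. Of the 1000 most abundant genes, 12 were higher and 14 lower.

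Genes were then grouped in 52 lists of cell types and pathways. The lists held 1421 entries in use, of which 188 were higher and 246 lower, and a gene can stand in several. In bulk RNA, fewer cells of a type and less RNA per cell cannot be told apart. A member that passed the filter only through the library where it is high had to differ, so the counts below describe each list and are set against 9.68% higher and 11.8% lower over all genes. These shares fell with level, from 25.0% and 29.5% under 1 TPM to 1.64% and 1.85% at 100 TPM or more. For a list of mostly low or mostly abundant genes, the shares over all genes are therefore not matched in level. Of all genes 46.8% had a ratio above 1, 53.2% one below 1 and 16.2% one above 1.5. The C2 ceramide level was above both DMSO libraries for 34.1% of all genes and below both for 32.4%.

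**Figure D2:**
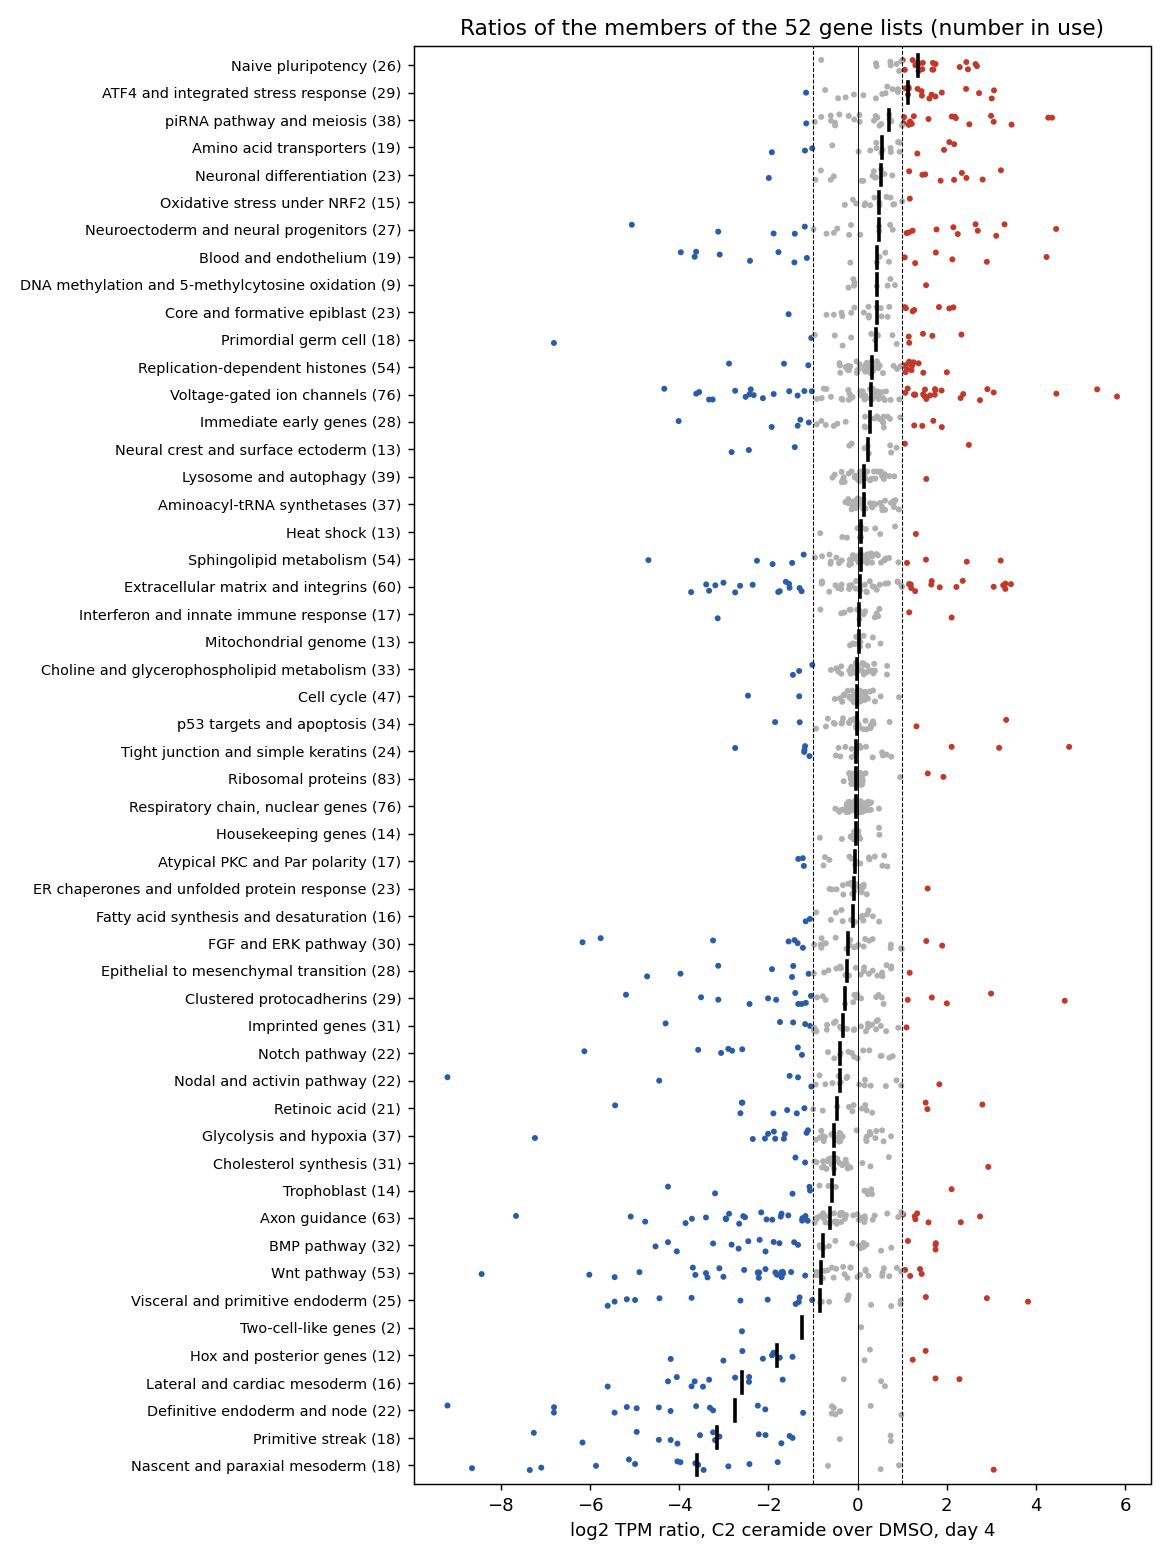
Each row is 1 of the 52 gene lists, with the number of members in use, and each point is a member by its day 4 log2 TPM ratio, C2 ceramide over DMSO (red higher, blue lower, grey within 2-fold, genes at 0 in 1 library at their bound). Bars mark medians. Naive pluripotency (1.36) and the ATF4 response (1.13) lie at the top, and primitive streak (−3.15) and nascent and paraxial mesoderm (−3.61) at the bottom.

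Genes of the primitive streak were lower with C2 ceramide, transcription factors without exception and signals in part. All 9 transcription factors on the list were lower, and the median log2 ratio was −4.04. Gsc, a homeobox gene of the organizer, was at 66.1 and 2.13 TPM. Evx1, a homeobox gene of the posterior streak, was at 42.5 and 2.32 TPM. Mixl1, a homeobox gene of mesoderm and endoderm, was at 134 and 8.17 TPM. Of the 9 signals 6 were lower, with a median of −1.71. Fgf8, an FGF ligand of the streak, was at 351 and 37.1 TPM. The other 3 were within 2-fold. Nodal, the ligand that patterns the streak, was at 45.3 and 34.4 TPM. Fgf4, an FGF ligand also made by ES cells, was at 31.3 and 52.3 TPM. Fgf17 was at 12.9 and 21.7 TPM. With the day 3 library included, 9 of the 18 genes were lower with C2 ceramide than in either DMSO library, against 32.4% of all genes. They were 3 of the 9 transcription factors and 6 of the 9 signals. Fgf4 and Fgf17 were higher than in either DMSO library. Eomes, a T-box gene, was at 25.2, 84.7 and 9.24 TPM with DMSO on days 3 and 4 and with C2 ceramide, whereas Sp5, a Wnt target, was at 4.29, 105 and 12.2 TPM.

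Mesoderm and endoderm genes followed. Of 18 genes of nascent and paraxial mesoderm 14 were lower and 1 was higher, and the median log2 ratio was −3.61. With 10 or more counts in both libraries, 11 of 13 were lower. Pdgfra, a growth factor receptor gene of mesoderm, was at 10.1 and 0.318 TPM. Aplnr, which encodes the receptor of apelin, was at 64.9 and 1.86 TPM. Cxcr4, a chemokine receptor gene, was at 9.02 and 0.066 TPM. The higher gene was Tbx18, with 0 and 25 counts. Within 2-fold was Tcf15, a bHLH gene of somites that is also expressed in pluripotent cells, at 132, 46.2 and 87.9 TPM with DMSO on days 3 and 4 and with C2 ceramide. In lateral and cardiac mesoderm 11 of 16 genes were lower and 2 higher, and the higher ones were Tbx3, which also belongs to naive pluripotency, and Myocd, at 0.022 and 0.107 TPM. Blood and endothelium genes were split, with 6 of 19 higher and 8 lower. Kdr, a VEGF receptor gene of the earliest blood and endothelial progenitors, was at 12.1 and 0.964 TPM. Runx1, a blood factor gene, was at 1.34 and 0.086 TPM, whereas Tal1, Fli1, Gata2 and Sox7, other factors of blood and endothelium, were higher but at 0.226 to 1.49 TPM. Of 22 genes of definitive endoderm and node 14 were lower and none was higher. Foxa1, a forkhead gene of endoderm, was at 4.03 and 0 TPM. Foxj1, a gene of cilia and node, was at 14.5 and 0.792 TPM. In the visceral and primitive endoderm list, 12 of 25 genes were lower and 3 higher. Of its 6 transcription factors 5 were lower, and the exception was Sox7, at 0.108 and 0.805 TPM. Lrp2, which encodes the endocytic receptor megalin, was higher at 0.180 and 2.54 TPM. Hox and Cdx genes of the posterior body, 8 lower and 2 higher of 12, were low, and only Evx1, Cdx2, Hoxb1, Hoxb2 and Cdx1 reached 1 TPM with DMSO.

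**Figure D3:**
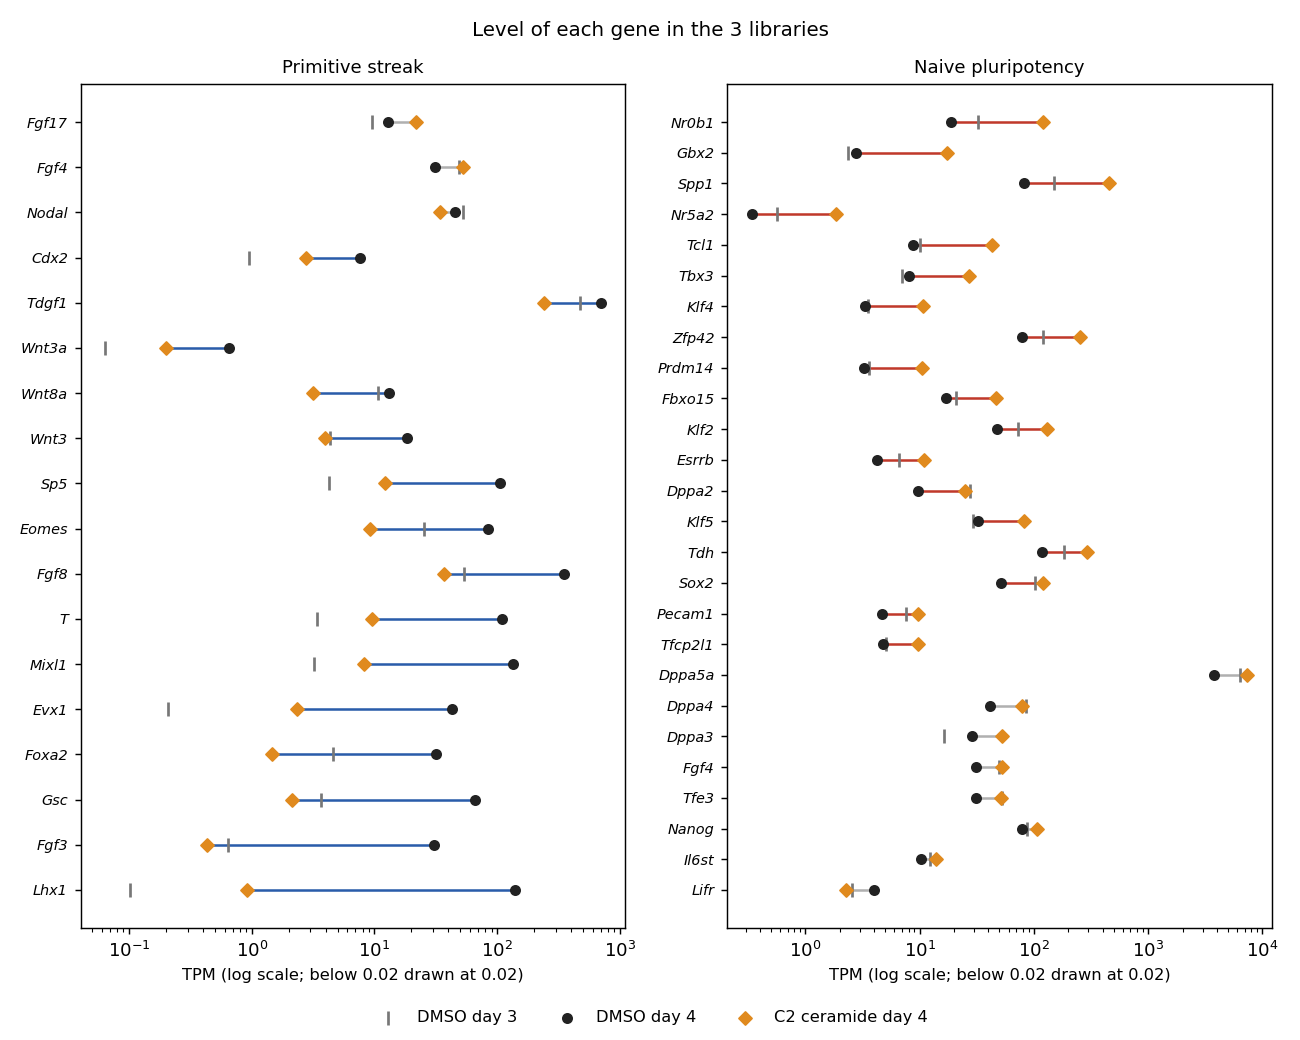
TPM (horizontal, log scale) of each primitive streak gene (left) and naive pluripotency gene (right) in the 3 libraries, 1 symbol per library, with the day 4 pair joined by a line (red higher, blue lower, grey within 2-fold). C2 ceramide lies left of DMSO day 4 for 16 of 18 streak genes and right of it for 25 of 26 naive genes.

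In the Wnt pathway 24 of 53 genes were lower and 4 higher. Among the 48 genes with 10 or more counts in both libraries, 20 were lower and 4 higher, and the median log2 ratio was −1.10 for ligands, −1.18 for secreted antagonists, −1.23 for nuclear factors and targets and −0.29 for receptors with the R-spondin axis. Wnt5a, a ligand of cell movement, was at 10.0 and 0.337 TPM. Frzb, a secreted antagonist, was at 51.9 and 4.00 TPM. Axin2, a direct target that feeds back on the pathway, was at 2.92 and 0.813 TPM. Lgr5, an R-spondin receptor gene, had 1029 and 0 counts. On the other side, Notum, which encodes a secreted enzyme that inactivates Wnt, was at 1.39 and 3.77 TPM, and Ctnnb1, which encodes β-catenin, was within 2-fold at 437 and 492 TPM. In the Nodal pathway 5 of 22 were lower and 1 higher, and none of the 7 receptor and SMAD genes differed by 2-fold. Cfc1, which encodes a Nodal co-receptor, was at 42.2 and 1.93 TPM. Tdgf1, the related co-receptor gene of the epiblast, was at 697 and 242 TPM. Gdf3, a ligand of ES cells, was at 11.7 and 41.8 TPM. Lefty1 and Lefty2, feedback antagonists, were at 54.8 and 108 TPM and at 77.9 and 95.5 TPM.

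Of 32 BMP pathway genes 13 were lower and 4 higher. The ligand genes Bmp7 and Bmp2 were lower, at 27.9 and 4.39 TPM and at 8.49 and 0.511 TPM, while Bmp4 was within 2-fold at 9.05 and 13.0 TPM. Targets went both ways. Msx1 and Msx2, homeobox genes, were lower at 66.5 and 9.38 TPM and at 11.3 and 2.46 TPM, Id1, an inhibitor of bHLH factors, was within 2-fold at 298 and 165 TPM, and Id2 of the same family was higher at 29.7 and 99.7 TPM. In the FGF and ERK list, 7 of 30 were lower and 2 higher. The ligand Fgf10 was at 7.54 and 0.139 TPM. Fgf5, a formative epiblast gene, was at 253 and 86.6 TPM. Of 17 feedback genes and targets of ERK 13 had a ratio below 1, with a median of −0.49. Dusp6, a phosphatase gene, was at 151 and 89.6 TPM. Spry4 was at 10.2 and 5.79 TPM. Etv4, which had the lowest ratio of these, was at 25.6 and 9.59 TPM. Fgfr3, a receptor gene, was higher at 0.764 and 2.84 TPM. In the Notch pathway 8 of 22 were lower and none was higher. Of the 5 ligands 4 were lower. Dll1, which acts in the paraxial mesoderm, was at 19.8 and 2.65 TPM. Dll3 was at 81.4 and 6.83 TPM. Jag1 was at 16.4 and 1.97 TPM. The targets were split, 3 of 8 with a ratio above 1. Hes1, a repressor gene, was at 128 and 53.9 TPM. Hey1 was at 12.4 and 2.07 TPM. Nrarp was at 18.7 and 2.66 TPM. For retinoic acid, the genes of binding and degradation differed most. Cyp26a1, whose product degrades retinoic acid, was at 444 and 10.3 TPM, and the binding protein genes Crabp1 and Crabp2 went opposite ways, at 35.5 and 11.9 TPM and at 10.7 and 74.7 TPM. Rarg, a receptor gene, was at 13.3, 4.55 and 13.5 TPM with DMSO on days 3 and 4 and with C2 ceramide. The synthesis genes Aldh1a2 and Rdh10 were within 2-fold, at 1.23 and 1.13 TPM and at 4.00 and 4.60 TPM.

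Genes of epithelial to mesenchymal transition, the step by which streak cells leave the epithelium, differed mostly on the mesenchymal side. All 8 mesenchymal genes had a ratio below 1, and 4 were called lower. Cdh2, which encodes N-cadherin, was at 73.7 and 8.44 TPM. Cdh11 was at 17.3 and 0.655 TPM. Fn1, the fibronectin gene, was at 84.3 and 31.0 TPM, and Vim, the vimentin gene, was within 2-fold at 58.2 and 37.0 TPM. Snai1, a repressor of E-cadherin, was at 16.4 and 1.04 TPM. None of the 14 epithelial genes differed by 2-fold, and their median log2 ratio was 0.20. Of the simple keratins, Krt8 and Krt19 were lower at 717 and 339 TPM and at 94.0 and 40.9 TPM, and Krt18 was within 2-fold at 552 and 393 TPM. In the list of atypical PKC and Par polarity genes, 3 of 17 were lower and none higher. Mpp5, 1 of the lower genes, was within 2-fold by counts per library total, at −0.50 on the log2 scale. Prkci and Prkcz, which encode the atypical PKC isoforms, were at 39.8 and 47.8 TPM and at 15.0 and 15.7 TPM, and Crb2, which encodes an apical protein needed for exit from the streak, was lower at 3.52 and 1.4 TPM. Matrix and integrin genes went both ways, 14 of 60 higher and 15 lower. Col18a1, a basement membrane collagen gene, was at 54.8 and 125 TPM. Itga8, an integrin gene, was at 6.63 and 1.30 TPM.

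Genes of naive pluripotency were higher with C2 ceramide. Of 26 genes 18 were higher and none lower. The median log2 ratio was 1.36, and 25 ratios were above 1. All 26 had 10 or more counts in both libraries. The leading genes were Nr0b1, a nuclear receptor gene, at 32.2, 18.7 and 119 TPM with DMSO on days 3 and 4 and with C2 ceramide. Spp1, the osteopontin gene, was at 149, 82.4 and 458 TPM. Tcl1, a kinase cofactor gene, was at 9.99, 8.83 and 43.1 TPM. The transcription factor genes Klf2, Klf4 and Klf5 were at 47.9 and 131 TPM, at 3.33 and 10.8 TPM and at 32.3 and 82.5 TPM on day 4. Esrrb was at 4.26 and 11 TPM. Prdm14 was at 3.27 and 10.5 TPM. Tbx3 was at 8.13 and 27.3 TPM. Zfp42, the Rex1 gene, was at 78.2 and 252 TPM. Nanog and Dppa3 were within 2-fold, at 78.9 and 106 TPM and at 28.8 and 52.8 TPM, and Lifr, the LIF receptor gene, was at 3.99 and 2.27 TPM, the only ratio below 1. In 22 of the 26 genes the C2 ceramide level was above that of either DMSO library, against 34.1% of all genes. Zfp42, for example, was at 119.8, 78.2 and 252 TPM with DMSO on days 3 and 4 and with C2 ceramide.

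Core and formative epiblast genes had a smaller median log2 ratio of 0.43. Of 23 genes 7 were higher and 1 lower, and 4 were above both DMSO libraries. Sox3 was at 9.72, 2.04 and 9.03 TPM with DMSO on days 3 and 4 and with C2 ceramide. Pou3f1, a POU factor gene of the formative state, was at 97.2, 20.7 and 73.4 TPM. Utf1 was at 1266, 362 and 872 TPM. Fgf5, in contrast, was at 176, 253 and 86.6 TPM. The de novo DNA methyltransferase gene Dnmt3b was at 736, 383 and 365 TPM, a day 4 log2 ratio of −0.07. Of the genes for 5-methylcytosine oxidation, Tet2 was higher at 0.816 and 2.36 TPM, and Tet1 and Tet3 were within 2-fold at 14.1 and 25.1 TPM and at 3.93 and 6.54 TPM.

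Germ line genes, many of them methylated and silent in somatic cells, were also higher in part. Of 38 genes of the piRNA pathway and meiosis 16 were higher and 1 lower, and the median log2 ratio was 0.71. The lower gene, Sycp2, had 18 and 34 counts, and Tdrd6, called higher, had 16 and 4 counts, so the counts of both went against the TPM. With 10 or more counts in both libraries, 10 of 32 were higher and 1 was lower, against 925 and 1105 of 15127 genes in all. Piwil2, which encodes a PIWI protein that binds piRNAs, was at 0.863 and 4.90 TPM. Mael was at 4.50 and 10.4 TPM, and the meiotic genes Hormad1 and Tex11 at 0.535 and 2.31 TPM and at 0.541 and 2.44 TPM. Gtsf1, a piRNA pathway gene, had 0 and 24 counts. Sycp3 and Syce2, the most abundant members, were at 111 and 96.6 TPM and at 114 and 117 TPM. Of 18 primordial germ cell genes 5 were higher and 2 lower. Dazl, an RNA-binding protein gene of germ cells, was at 1.64 and 8.24 TPM. Ifitm3, an early germ cell marker that is also an interferon target, was at 179.8 and 401 TPM, while Dnd1 was lower at 31.2 and 15.2 TPM and Prdm1, the Blimp1 gene, was within 2-fold at 5.87 and 4.12 TPM.

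Neural genes were higher in part, and most of them were low. Of 27 neuroectoderm genes 11 were higher and 5 lower, and the median log2 ratio was 0.48. With 1 TPM added to both values, 4 were higher. Sox1, a marker of neuroectoderm, had 0 and 66 counts and 0 on day 3, Pax6, an eye and forebrain gene, was at 0.430 and 0.921 TPM. Rax, a gene of the eye field, was at 0.096 and 0.621 TPM. Sox2 and Gbx2 were the members at the highest levels among those called higher, and both also belong to the naive list. Lower were Cdh2, Six3, Otx1, Vax1 and Fabp7, the first of which is also a mesenchymal gene. Vax1 and Vax2, homeobox genes of the same family, went opposite ways, at 1.60 and 0.048 TPM and at 1.75 and 17.2 TPM. Of 23 genes of neuronal differentiation 9 were higher and 1 lower. Tubb3, which encodes a neuronal tubulin, was at 6.93, 3.69 and 16.5 TPM with DMSO on days 3 and 4 and with C2 ceramide. Gap43, which encodes a growth cone protein, was at 12.1, 3.97 and 27.7 TPM. Stmn3 was at 23.7, 15.0 and 42.9 TPM. Neurod1, a proneural factor gene, was at 0.220 and 0.799 TPM on day 4, and Dcx, a marker of migrating neurons, was lower at 0.342 and 0.086 TPM. Elavl3 and Map2, of young neurons, were within 2-fold at 0.152 and 0.105 TPM and at 1.78 and 1.17 TPM. Of 76 voltage-gated ion channel genes 22 were higher and 16 lower, and among these only Kcnj12 and Kcns3 passed 3 TPM in a library, at 3.22 and 7.0 TPM and at 8.21 and 0.862 TPM. Of 63 axon guidance genes 22 were lower and 7 higher. Nrp1, which encodes a receptor of semaphorins and VEGF, was at 5.66 and 0.028 TPM. Sema6d, a semaphorin gene, was at 4.86 and 0.143 TPM.

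Among the stress pathways, genes of the integrated stress response were the ones most often higher. Of 29 genes of the ATF4 list 16 were higher and 1 lower. The median log2 ratio was 1.13, and 24 were above both DMSO libraries. Atf4 itself was at 124, 143 and 315 TPM with DMSO on days 3 and 4 and with C2 ceramide, a day 4 log2 ratio of 1.14 (1.10 to 1.18 by counting error). Of its 12 factors and regulators, Chac1 among them, 8 were higher. Trib3, which encodes a pseudokinase that restrains ATF4, was at 14.7, 16.1 and 87.0 TPM. Ddit3, the CHOP gene, was at 22.8, 15.2 and 41.0 TPM. Atf3, a bZIP factor gene, was at 3.08, 6.04 and 22.4 TPM. Nupr1, a transcriptional regulator gene, was at 7.71, 7.31 and 48.3 TPM. Cebpb, which encodes a partner of ATF4, was at 32.9, 40.6 and 103 TPM. The kinase genes Eif2ak3 (PERK) and Eif2ak4 (GCN2) were within 2-fold, at 8.59 and 8.11 TPM and at 9.93 and 7.33 TPM, as was Ppp1r15a, the GADD34 gene, at 29.4 and 43.1 TPM.

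Of 17 targets 8 were higher. Psat1 and Psph, of serine synthesis, were higher at 103 and 224 TPM and at 34.4 and 72.4 TPM. Mthfd2, a mitochondrial enzyme gene of one-carbon metabolism, was higher at 46.2 and 141 TPM. Phgdh, the entry enzyme gene of serine synthesis, was within 2-fold at 209 and 359 TPM. Asns, the asparagine synthetase gene, lies at chr6:7675169-7693254 and was at 195 and 431 TPM, or 1.14 (1.11 to 1.18 by counting error) on the log2 scale. Chac1 lies at chr2:119351229-119354381. Pycr1 and Aldh18a1, of proline synthesis, were within 2-fold at 13.6 and 25.5 TPM and at 38.8 and 72.9 TPM. Fgf21, an ATF4 target of liver, was the lower gene at 11 and 5 counts, and Ddit4 was at 31.9 and 19.3 TPM.

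ATF4 binds with C/EBP proteins to an element searched here as TGATGNAA, on either strand, in RefSeq windows from 250 bases before to 50 bases after each gene start (build GRCm38.p6). Of the 29 genes 27 had a window, and 8 of the 27 (29.6%) held the element, 5 of 15 genes called higher and 3 of 12 others. Over all genes with a window it was 1219 of 27025 (4.51%), and 318 of 11885 (2.68%) for genes in use. Its first base lay at position −23 from the gene start for Asns, −110 for Atf3, −193 for Chac1, −110 for Nupr1, 14 for Trib3, −103 for Pycr1, −139 for Fgf21 and −200 for Vldlr. A match is a string of letters and not a site shown to be bound. The list was chosen for roles in the ATF4 response, so its share beside that of all genes does not bear on these libraries. Within the list the element was held by 33.3% of genes called higher and 25% of the others. The 250 bases before the start are given for the genes called higher that hold the element within these bases, not for those with the largest ratios. The genes are Asns at chr6:7693210-7693459 (minus strand), Atf3 at chr1:191183334-191183583 (minus strand), Chac1 at chr2:119350992-119351241 (plus strand) and Nupr1 at chr7:126625471-126625720 (minus strand). Pycr1 at chr11:120643749-120643998 (minus strand) is added, which also holds the element but whose ratio stayed under 2-fold. The sequences run 5′ to 3′ along the gene, and the element or its reverse complement is in capitals.
Asns: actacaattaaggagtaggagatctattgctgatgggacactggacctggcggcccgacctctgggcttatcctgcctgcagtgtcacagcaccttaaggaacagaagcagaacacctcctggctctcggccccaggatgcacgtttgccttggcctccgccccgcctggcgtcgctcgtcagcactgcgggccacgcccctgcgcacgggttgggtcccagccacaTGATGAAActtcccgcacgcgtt
Atf3: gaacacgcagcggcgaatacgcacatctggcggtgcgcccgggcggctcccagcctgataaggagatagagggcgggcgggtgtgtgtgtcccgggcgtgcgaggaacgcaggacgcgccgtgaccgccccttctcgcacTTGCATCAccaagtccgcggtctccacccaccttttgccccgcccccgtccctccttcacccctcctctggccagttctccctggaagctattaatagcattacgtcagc
Chac1: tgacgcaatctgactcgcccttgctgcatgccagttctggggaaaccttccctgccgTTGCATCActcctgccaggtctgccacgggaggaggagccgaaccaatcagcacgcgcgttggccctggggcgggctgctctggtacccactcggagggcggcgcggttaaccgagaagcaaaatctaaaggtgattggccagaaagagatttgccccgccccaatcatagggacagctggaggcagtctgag
Nupr1: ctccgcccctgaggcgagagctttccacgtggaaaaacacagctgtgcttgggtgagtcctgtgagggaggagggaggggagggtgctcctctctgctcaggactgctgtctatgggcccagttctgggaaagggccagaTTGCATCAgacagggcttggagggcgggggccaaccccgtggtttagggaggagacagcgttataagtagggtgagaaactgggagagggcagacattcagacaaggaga
Pycr1: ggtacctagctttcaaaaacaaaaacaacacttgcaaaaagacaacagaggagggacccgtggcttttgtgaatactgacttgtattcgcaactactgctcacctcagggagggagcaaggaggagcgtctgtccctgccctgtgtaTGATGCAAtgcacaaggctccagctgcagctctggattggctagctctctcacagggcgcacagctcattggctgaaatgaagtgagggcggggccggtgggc

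**Figure D4:**
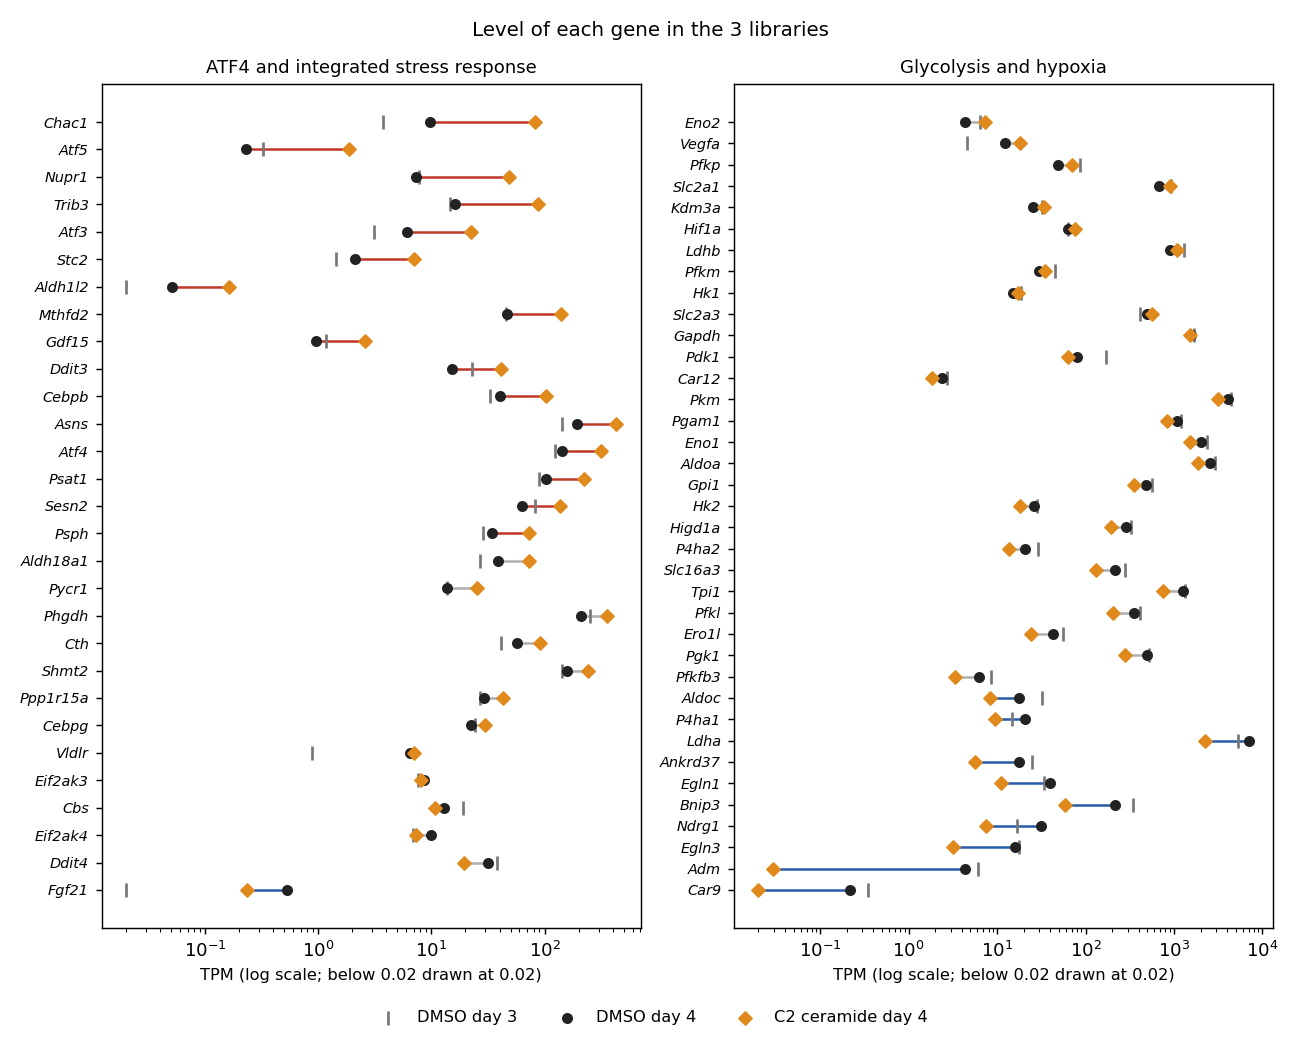
TPM (horizontal, log scale) of each gene of the ATF4 list (left) and of glycolysis and hypoxia (right) in the 3 libraries, 1 symbol per library, with the day 4 pair joined by a line (red higher, blue lower, grey within 2-fold). C2 ceramide lies right of DMSO day 4 for 24 of 29 ATF4 genes and left of it for 27 of 37 genes of glycolysis and hypoxia.

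Amino acid uptake and the charging of tRNAs are known outputs of ATF4. Of 19 amino acid transporter genes 4 were higher and 3 lower. Slc7a1 and Slc7a3, which encode carriers of cationic amino acids, were at 5.68 and 25.5 TPM and at 57.0 and 237 TPM. Slc6a9, a glycine carrier gene, was at 2.24 and 8.58 TPM. Slc7a5, which encodes the transporting subunit of a leucine exchanger, was at 54.2 and 137 TPM. Its partner Slc3a2 was within 2-fold at 219 and 411 TPM. The lower genes, Slc7a2, Slc7a8 and Slc36a1, were all under 2 TPM. None of the 37 aminoacyl-tRNA synthetase genes, whose enzymes load amino acids onto tRNAs, differed by 2-fold, yet the cytosolic and mitochondrial enzymes did not move alike. Of 20 cytosolic genes 16 had a ratio above 1 and 8 one above 1.5, against 46.8% and 16.2% of all genes. Their median log2 ratio was 0.45. Of 17 mitochondrial genes 11 had a ratio above 1 and none above 1.5, with a median of 0.04. Lars, Cars, Nars and Aars, for leucine, cysteine, asparagine and alanine, were highest in ratio, with Lars at 63.8 and 121 TPM, or 0.92 (0.88 to 0.97 by counting error) on the log2 scale. Kars, Hars, Dars and Qars were at −0.04, −0.03, 0.01 and −0.15 on the log2 scale.

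The other arms of the stress responses showed little. Of 23 genes of ER chaperones and the unfolded protein response only Herpud1, whose product acts in ER-associated degradation, was higher, at 18.5 and 54.8 TPM. Hspa5, the BiP gene, was at 508 and 453 TPM. Hsp90b1 was at 389 and 336 TPM. Xbp1 was at 59.0 and 56.8 TPM. Dnajb9, a target of spliced XBP1, was at 5.29 and 5.04 TPM. Of 13 heat shock genes only Hspb1 passed 2-fold, and Hspa1a and Hspa8 were at 1.92 and 3.44 TPM and at 1855 and 1851 TPM. Of 15 genes under NRF2, the regulator of the oxidative stress response, 12 had a ratio above 1 and only Nqo1 was higher, at 7.13 and 16.1 TPM, with Hmox1 at 61.5 and 107 TPM. Among p53 targets and apoptosis genes, 2 of 34 were higher and 2 lower. The p53 targets Cdkn1a, Mdm2 and Bax were at 121 and 95.5 TPM, at 55.8 and 57.1 TPM and at 486 and 611 TPM. Hrk, a BH3-only killer gene, was higher at 0.258 and 2.60 TPM, as was the survival gene Bcl2 at 1.21 and 3.01 TPM, and Fas, the death receptor gene, and Ccng2 were lower at 1.85 and 0.513 TPM and at 24.8 and 10.1 TPM.

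Genes of glycolysis and of the response to low oxygen were lower or within 2-fold. Of 37 genes 10 were lower and none was higher, and the level of the C2 ceramide library was below both DMSO libraries for 27, against 32.4% of all genes. Their summed level was 24232 TPM with DMSO against 16093 with C2 ceramide. Of these sums Ldha, the gene with the greatest loss, held 6963 and 2245 TPM. Of 21 glycolysis genes 2 were called lower, Ldha and Aldoc, but 14 had a ratio below 1. Gpi1 and Pfkl, of early steps, were at 482 and 354 TPM and at 352 and 205 TPM. Aldoa and Tpi1, whose enzymes form and interconvert the triose phosphates, were at 2573 and 1888 TPM and at 1259.6 and 745 TPM. Gapdh, of the step that follows, was nearly level at 1542 and 1516 TPM, while Pgk1, of the first step that yields ATP, was at 499 and 277 TPM. Pgam1, Eno1 and Pkm, of the last steps to pyruvate, were at 1090.2 and 824 TPM, at 2046 and 1537 TPM and at 4116 and 3141 TPM. These 9 genes were all within 2-fold, and the level of Eno1 leaves out reads assigned to its copy Eno1b. The glucose carrier genes Slc2a1 and Slc2a3, in contrast, had ratios above 1, at 675 and 901 TPM and at 491 and 561 TPM, and so did Ldhb, the other lactate dehydrogenase gene, at 901 and 1087 TPM. Unlike Pfkl, the other phosphofructokinase genes Pfkp and Pfkm had ratios above 1, at 48.5 and 71.0 TPM and at 29.9 and 34.5 TPM. Slc16a3, a lactate exporter gene, was within 2-fold at 217 and 131 TPM, and Slc16a1, which is not on the list, was at 316 and 93.2 TPM.

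Of 16 targets of hypoxia-inducible factor 8 were lower and none was higher, and the median log2 ratio was −0.98. Bnip3, a mitophagy receptor gene, was at 347, 215 and 58.5 TPM with DMSO on days 3 and 4 and with C2 ceramide, a day 4 log2 ratio of −1.88 (−1.95 to −1.81 by counting error). Egln1 and Egln3, which encode prolyl hydroxylases that mark HIF for degradation, were at 34.1, 39.9 and 11.1 TPM and at 17.7, 16 and 3.15 TPM. Ndrg1 was at 16.6, 31.3 and 7.41 TPM. Adm, the adrenomedullin gene, had 147 and 1 counts, and Car9, a carbonic anhydrase gene, 12 and 0 counts. Ankrd37 and P4ha1 were also lower, at 17.9 and 5.67 TPM and at 20.9 and 9.47 TPM. Not every target took part, since Vegfa and Kdm3a had ratios above 1, at 12.1 and 18.2 TPM and at 25.5 and 33.6 TPM, and Hif1a itself was at 62.8 and 76.8 TPM. Mesoderm and endoderm markers were lower in the same library, and their part in this result was not tested. The nuclear genes of the respiratory chain, 76 in all, and the 13 protein genes of the mitochondrial genome lay within 2-fold without exception, with medians of −0.03 and 0.04.

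Sterol synthesis genes had ratios below 1 of small size. Of 31 genes of cholesterol synthesis and its control 27 had a ratio below 1, against 53.2% of all genes, and the calls were few, 2 lower and 1 higher, and the median log2 ratio was −0.53. Of the 20 enzyme genes 19 had a ratio below 1, and 18 were below both DMSO libraries. Hmgcs1, of an entry step, was at 151, 100.3 and 52.9 TPM with DMSO on days 3 and 4 and with C2 ceramide. Fdps, of the isoprenoid branch point, was at 414, 286 and 178 TPM. Sqle, of a later step, was at 156, 97.9 and 87.5 TPM. Tm7sf2, a sterol reductase gene, and Stard4, a sterol carrier gene, were lower at 9.04 and 3.44 TPM and at 15.5 and 6.85 TPM, the latter within 2-fold by counts per library total. Abca1, which encodes the exporter of cholesterol and an LXR target, went the other way, at 0.083 and 0.632 TPM, as did Abcg1 at 1.24 and 2.01 TPM, within 2-fold. Of the 16 genes of fatty acid synthesis and desaturation 2 were lower, Scd1 and Scd2, desaturase genes, at 6.65 and 3.17 TPM and at 108 and 48.2 TPM. Scd1 was within 2-fold by counts per library total, at −0.81 on the log2 scale. Fasn was at 34.3 and 39.7 TPM. Srebf1, which encodes the SREBP-1 factor, was at 33.6 and 17.7 TPM.

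**Figure D5:**
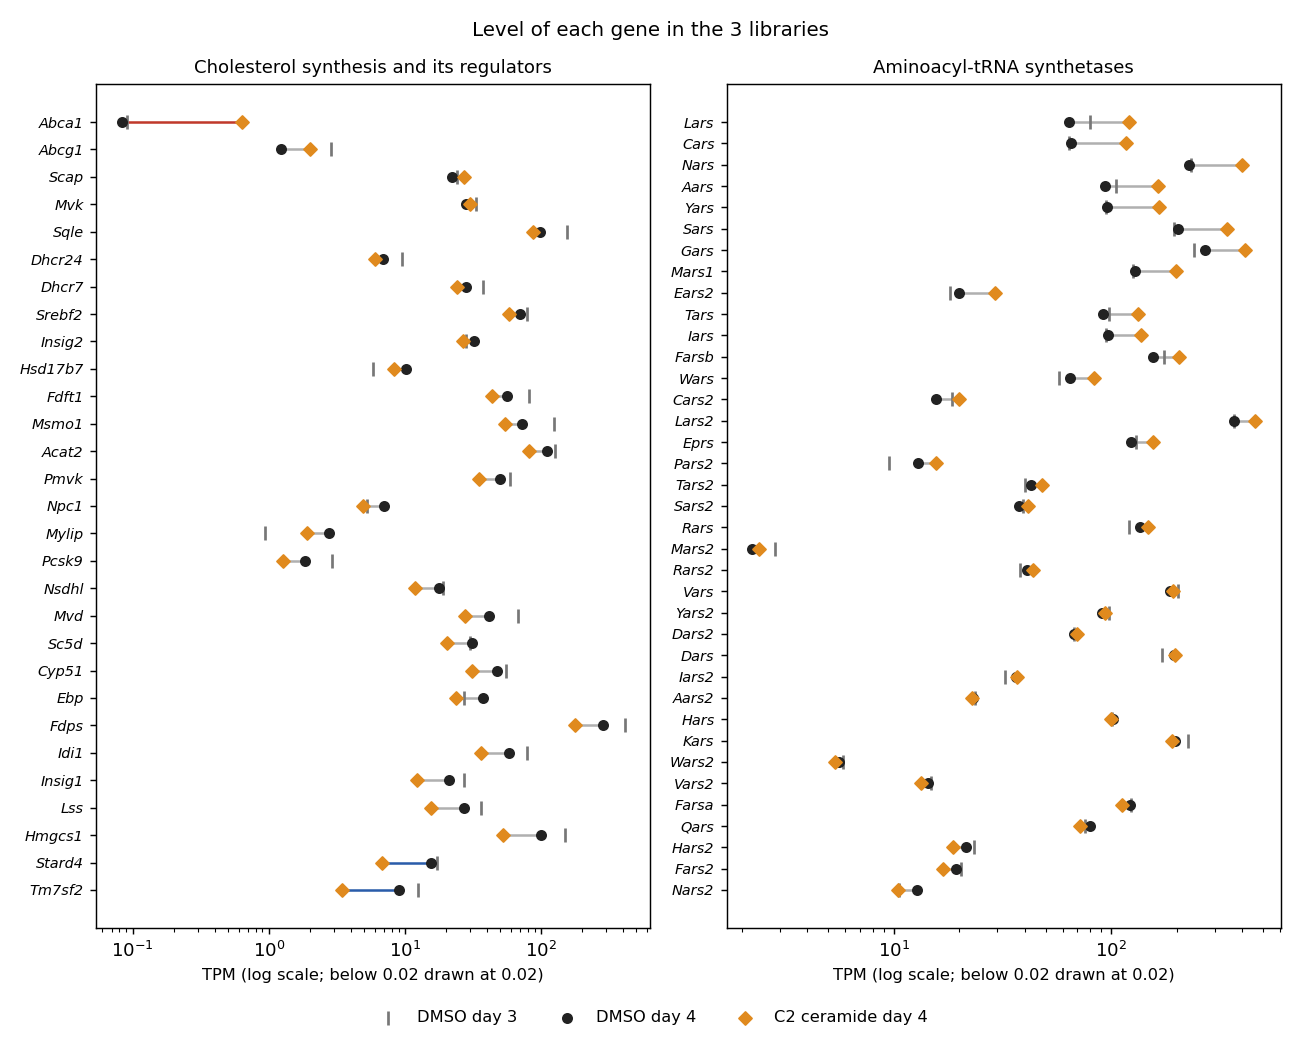
TPM (horizontal, log scale) of 29 genes of cholesterol synthesis and its control (left) and of the aminoacyl-tRNA synthetases (right) in the 3 libraries, 1 symbol per library, with the day 4 pair joined by a line (red higher, blue lower, grey within 2-fold). C2 ceramide lies left of DMSO day 4 for 25 of these 29 sterol genes and right of it for 27 of 37 synthetase genes, with 26 and 37 genes within 2-fold.

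The metabolism of ceramide itself differed little at the transcript level. Of 54 sphingolipid genes 4 were higher and 5 lower, and the median log2 ratio was 0.07. None of the 12 genes of ceramide hydrolysis and sphingomyelin differed by 2-fold. Sptlc2, of the serine palmitoyltransferase that starts sphingolipid synthesis, was at 67.8 and 65.8 TPM. Ugcg, of glucosylceramide synthesis, was at 23.4 and 20.7 TPM. Asah1, the acid ceramidase gene, was at 65.5 and 107 TPM, or 0.70 (0.64 to 0.77 by counting error) on the log2 scale. St8sia1, which encodes the GD3 synthase, was higher at 0.662 and 3.61 TPM. B4galt5, of lactosylceramide synthesis, was higher by TPM at 3.87 and 11.2 TPM, but with 486 and 597 counts its count ratio was within 2-fold. S1pr3, which encodes a receptor of sphingosine 1-phosphate, was lower at 0.660 and 0.176 TPM. Of 33 genes of choline and glycerophospholipid metabolism 3 were lower. Among them Lpin1, a phosphatidate phosphatase gene, was at 6.83 and 2.75 TPM. Of 39 lysosome and autophagy genes 28 had a ratio above 1 and only Tfeb, the regulator of lysosome genes, was higher, at 1.97 and 5.73 TPM. Lamp1 was at 351 and 475 TPM. Ctsl was at 279 and 393 TPM. Sqstm1, the p62 gene, was at 231 and 337 TPM.

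Growth and division genes stayed within 2-fold with few exceptions. Of 83 ribosomal protein genes 2 were higher, and these were the low variants Rpl39l and Rpl3l, at 1.96 and 7.43 TPM and at 0.114 and 0.339 TPM. Of 47 cell cycle genes none was higher and 2 were lower, Ccnd2, a D-type cyclin gene, at 36.8 and 14.9 TPM. Cdkn2c was at 0.506 and 0.092 TPM. Mki67, Pcna and Cdk1 were at 6.41 and 7.05 TPM, at 254 and 281 TPM and at 310.0 and 349 TPM. Of 54 replication-dependent histone genes 14 were higher and 3 lower. Most of their messages have no poly(A) tail and their copies are near-identical, so values such as those of H4c8, at 3.92 and 9.05 TPM, and H3c13, at 5.82 and 13.3 TPM, are uncertain. Immediate early genes went both ways, 4 of 28 higher and 5 lower. Klf2, Klf4, Atf3 and Arc were the higher ones, the first 3 of which belong to other lists, while Egr1 and Fos, which ERK induces, were at 15.0 and 9.13 TPM and at 8.07 and 4.59 TPM, within 2-fold. Of 31 imprinted genes 5 were lower and 1 higher. Peg3 was lower at 45.4 and 13.6 TPM. Mest was at 167 and 73.8 TPM. Phlda2 was at 271 and 129 TPM. H19 and Igf2, of 1 cluster, were at 17.9 and 21.1 TPM and at 14.0 and 16.5 TPM. Of 17 interferon genes 2 were higher and 1 lower, and Isg15, an antiviral gene, was within 2-fold at 4.33 and 2.43 TPM. Clustered protocadherins, 5 higher and 11 lower of 29, share exons between genes, so their split is uncertain.

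Among lincRNA and antisense genes calls in both directions were more frequent than among protein-coding genes. Processed pseudogenes had a larger share lower but a smaller share higher. Genes under 1 TPM in the higher library were called most often, 25.0% higher and 29.5% lower. The part of level in the differences between gene types was not tested. Of 332 lincRNA genes 25.3% were higher and 19.6% lower, of antisense genes 17.1% and 22.7%, and of 1128 processed pseudogenes 4.96% and 13.4%, against 9.03% and 10.7% of 14464 protein-coding genes. Platr10, a lincRNA of ES cells, was at 63.0, 16.8 and 46.6 TPM with DMSO on days 3 and 4 and with C2 ceramide. Rn7sk, a small nuclear RNA that holds the elongation factor P-TEFb, was at 32.7 and 172 TPM on day 4, but it has no poly(A) tail, and the cDNA was primed on poly(A). Bvht, a lincRNA of cardiac lineage, was at 5.42 and 12.2 TPM, with 49 and 112 counts. Lower were Lhx1os, which lies beside Lhx1 and had 185 and 0 counts, at least 62.0-fold lower, and Evx1os, which overlaps Evx1 on the opposite strand, at 10.1 and 0.325 TPM.

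Markers of blood cells and fibroblasts were low. Ptprc, the CD45 gene of blood cells, had 0 and 13 counts, and Hbb-bh1, an embryonic globin gene, was at 2.46 and 2.19 TPM. Of the fibroblast genes Col1a1, Col1a2 and Thy1, Col1a2 was higher at 1.16 and 5.93 TPM, or 2.36 (2.12 to 2.59 by counting error) on the log2 scale. Col1a1 was at 1.33 and 1.29 TPM although it had 73 and 229 counts, and Thy1 was at 0.351 and 2.21 TPM with 14 and 22 counts. The part of such cells in the results was not tested.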

How the data were processed

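RNA was taken from 3 cultures of EBs, and cDNA was made with a kit primed on poly(A) that does not keep strand. Per the study's methods, DRAGEN, which the labels also name, aligned the reads to GRCm38 with GENCODE annotation. The authors deposited a table with TPM and estimated counts per gene and library, and the counts of some genes are not whole. TPM divides by transcript length and scales each library to the same sum. It therefore moves when the estimated transcript changes, even with steady counts.

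For day 4, the TPM with C2 ceramide was divided by that with DMSO for each gene with 10 or more deposited estimated counts in 1 or both libraries, and 2-fold was the threshold. A TPM of 0 was set to 0.001 for the call only, and such genes are given by counts or as a bound against 3 counts in a library. Intervals are exact 95% intervals of the ratio of 2 counts, rounded to whole numbers, in Python with SciPy. Each was then shifted on the log2 scale by the difference between the TPM ratio and the count ratio. A gene whose counts go against its TPM, such as Zfp618, can therefore have an interval that excludes no difference. The ratio code was tested on simulated data. Scaling factors for the alternatives came from edgeR 4.0.16 and DESeq2 1.42.0 in R 4.3.3. No test was made, since there was 1 library a side. The columns of all 3 samples were used.

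The members and the lists were chosen with earlier results of these data known. The rule for named genes took, of protein-coding genes, the 12 highest and 12 lowest ratios at 10 TPM or more and the 12 greatest gains and losses in TPM, 6 non-coding genes each way, 4 members per list by size of ratio among those with 50 or more counts, reference genes, cell type markers and genes that the study names. Other genes in the text were chosen after their values were seen, for their role in a list. Alternatives were the scaling, the filter, the threshold, an added TPM, protein-coding genes alone, and intervals. Promoters are RefSeq sequences of GRCm38.p6. The values of some list members are not reported here, although list counts and medians include them.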

Additional observations from a re-analysis of the deposited data

How the results depend on the processing

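No paired analysis was possible because each condition had 1 library, and no library could be left out. Of 1660 higher and 2030 lower genes, adding 1 TPM to both values left 442 and 614, requiring 50 or more counts in 1 or both libraries 792 and 978, and requiring 10 or more in both 925 and 1105. A filter of 1 or more counts gave 3873 and 5140. A threshold of 1.5-fold gave 2779 and 3271 and one of 4-fold 678 and 959. These alternatives change the count by their construction. With 0.1 TPM added there were 1389 and 1718, and with counts per library total 1656 and 1967. TMM factors from edgeR gave 1711 and 1911, and DESeq2 factors 1706 and 1916. Leaving out genes whose interval held no difference gave 1554 and 1867. These include 241 and 323 genes at 0 counts in 1 library, which have no interval and stay in by construction. Requiring the count ratio to pass 2-fold too, which was chosen after seeing the data, left 1493 and 1856. The share of calls that were higher stayed between 41.4% and 47.2%. The median log2 ratio over all genes of −0.03 was −0.0183 by counts per library total, 0.00217 with TMM and −0.00316 with DESeq2 factors, −0.0511 with 1 or more counts and −0.0187 for protein-coding genes. Of the naive genes 5 and of the ATF4 list 4 passed 4-fold. Of the neuroectoderm genes 4 were higher with 1 TPM added and 7 passed 4-fold. Zfp618 reversed from 3.03 to −0.58 by counts per library total, −0.56 with TMM and −0.57 with DESeq2 factors. The counts and medians of the primitive streak list kept within 1.5 times of their values under all alternatives run. Other list counts were run with the scaling, filter and added TPM changed. There 145 counts changed by more than 1.5 times, or to or from 0, and 655 did not. For named genes 338 log2 ratios left their interval or had none, 984 stayed within it and 3 reversed. Depth limits genes of few counts most.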

Other observations

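Some genes absent or nearly absent in the DMSO library of day 4 were present with C2 ceramide, and they were chosen here after their values were seen. Gfra1, which encodes a receptor of the growth factor GDNF, was at 1.43, 0.008 and 2.62 TPM with DMSO on days 3 and 4 and with C2 ceramide, from 1 and 249 counts on day 4. Fut1, a fucosyltransferase gene, had 0 and 258 counts on day 4. Dcn, the decorin gene, was at 1.25, 0.071 and 4.25 TPM, Ednrb, an endothelin receptor gene, at 0.315, 0.010 and 0.581 TPM and Fbln5, a gene of elastic fibres, at 0.077, 0.015 and 0.819 TPM. All 5 were also present on day 3 at 0.077 to 1.43 TPM. In the other direction, Prdm6, a repressor gene of vascular muscle, had 550 and 1 counts on day 4 and was at 0 TPM on day 3.

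TPM and counts did not always point the same way. Of 1419 genes called higher with counts in both libraries, 1250 also passed 2-fold by counts per library total and 15 had a count ratio in the other direction. Of 1707 genes called lower these numbers were 1538 and 15. Grin2b, a glutamate receptor gene, had the largest ratio drawn in the plot of ratio by level, at 0.004 and 3.00 TPM, from only 1 and 24 counts. Dnah7b was lower by TPM, at 0.288 and 0.038 TPM, with 3 and 14 counts. In such genes the estimated transcript, and with it the length that TPM divides by, differed between the libraries.

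Lists of further cell types were split. Of 14 trophoblast genes 5 were lower and 1 higher, and Eomes, Cdx2, Krt8 and Phlda2 among the lower ones also belong to other lists. Hand1, a bHLH gene of trophoblast and lateral mesoderm, was at 6.61 and 0.347 TPM, and the trophoblast factor genes Tfap2c and Ascl2 were within 2-fold, at 27.0 and 33.4 TPM and at 4.65 and 5.80 TPM. Gcm1, a factor gene of the placental labyrinth, had 0 and 13 counts. Of 13 genes of neural crest and surface ectoderm 3 were lower and 2 higher. Sox9, a neural crest factor gene, was at 4.25 and 1.60 TPM, and Trp63, the p63 gene of stratified epithelia, had 0 and 17 counts. Of 24 genes of tight junctions and simple keratins 5 were lower and 3 higher. The claudin genes Cldn6 and Cldn7, the most abundant of their family here, were within 2-fold, at 309.9 and 237 TPM and at 138 and 134 TPM, and the claudin genes called higher, Cldn1, Cldn2 and Cldn19, were all under 1 TPM. On the list of the two-cell-like state 2 of 14 genes were in use. Tcstv3 was lower, with 18 and 0 counts. Eif1a, a list member that is not limited to that state, was at 141 and 149 TPM.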
